A study of Mus musculus with 21 samples.

Results

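The 9 genes described here encode the transcription factor p53 (Trp53), its paralogues p63 (Trp63) and p73 (Trp73), and 6 proteins that act on p53 or on its main ligase: Mdm2, Mdm4, Ppm1d, Ccng1, Rchy1 and Usp7. They were taken by symbol from a deposited table of 20900 genes, and all 9 were found in it. Their RNA was followed over 7 groups of 3 libraries each, 21 in all, and 8 of the 9 passed the filter on low values that left 14666 genes for testing. Trp63 did not pass it.

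p53 protein is made continuously and is kept low by Mdm2, a ubiquitin ligase that binds p53 and marks it for degradation. Mdm2 is itself a p53 target gene, so that active p53 raises the RNA of its own inhibitor, which makes a negative feedback loop. When ribosomal RNA synthesis is blocked, ribosomal proteins that are no longer built into ribosomes can bind Mdm2 and hold it off p53. RNA was measured here, and the amount or activity of p53 protein was not.

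The cells were E14 mouse embryonic stem cells grown in medium with serum and leukaemia inhibitory factor. BMH-21 and CX-5461 are compounds that block RNA polymerase I, which makes the precursor of ribosomal RNA, and each was given at 1 µM. Libraries come from 2, 4 and 8 h of each inhibitor and from untreated cells at 0 h, the control for both. The labels name replicates but not separate cultures, so the p-values measure a spread between libraries, largely pooled over genes, which may be technical. No untreated culture was collected at 2, 4 or 8 h, so treatment and time in fresh medium cannot be told apart. Because the 6 comparisons with control share the same 3 control libraries, they are not independent of each other.

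The libraries held 46604397 to 62812641 reads over the table. At that depth 3 reads, the upper limit that a count of 0 allows, stand at a log2 value between -4.63 and -3.59, with counting error only. The deposited values carry a scaling factor for each library, from 0.832 to 1.375, that shifts whole libraries. The median of all tested genes lay between -0.40 (BMH-21, 8 h) and 0.11 (CX-5461, 8 h) of the control on the log2 scale, and between BMH-21 and CX-5461 at 8 h it differed by -0.48. Values after centring each library on its own median are therefore given beside many of the results. The 8 stem cell markers checked, among them Pou5f1, Sox2 and Nanog, were all present, and Pou5f1 had at least 50599 reads in every library. Their summed level in CPM, reads scaled to the total of the library, was 5466 to 5523 in the control, 3460 to 3906 after 8 h of BMH-21 and 5018 to 5069 after 8 h of CX-5461. The sum hides unequal ranges of its members on the log2 scale. Esrrb had a control mean of 8.69 and a range of 6.19 to 8.74 over all libraries. For Zfp42 these were 10.03 and 7.69 to 10.12, and for Tdgf1 9.88 and 8.904 to 10.31. The 5 fibroblast markers summed to 222 to 232 CPM in the control and 372 to 410 after 8 h of BMH-21, with Col1a2 at 41 to 105 reads per library. Most of that sum was Vim, at 8827 to 21517 reads per library, and the markers did not move together. Col1a1 had a control mean of 3.15 and reached 5.18. Thy1 had a control mean of 4.48 and a range of 2.93 to 4.54 over all libraries. For Acta2 these were 4.49 and 3.25 to 4.66. The 5 markers of trophoblast or primitive endoderm summed to at most 12.3 CPM in any library. Their sum was 6.1 to 7.3 CPM in the control, 11.2 to 12.3 after 8 h of BMH-21 and 8.6 to 9.7 after 8 h of CX-5461. The part of these shifts in the results below was not tested. In a bulk sample, fewer cells of a type and less RNA per cell cannot be told apart.

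Sequence at the gene starts was examined because several of the 9 genes are known p53 targets. The p53 response element consensus is 2 copies of a motif of 10 bases that is its own reverse complement, and it was searched on both strands, without a spacer, in the 300 bases from 250 before to 50 after each RefSeq gene start (GRCm38.p6). Of 32817 such windows in the genome, 0.0884% held a site with at most 1 mismatch and 0.795% one with at most 2. Among the 11 windows of the 8 genes with an entry, the best was that of Ccng1, with 1 mismatch at position 5 of the site. The next was an internal start of Trp73, which lies in an intron of the longer transcript, with 2 mismatches at positions 10 and 15. The other 9 windows had 3 to 6 mismatches, and that of Mdm2 had 5. The p53-responsive promoter of Mdm2 lies in its first intron, which the window does not reach. The stretches below run 5′ to 3′ on the gene's strand from 250 to 41 bases before the start, with the site in capitals. They cover chr11:40755327-40755536 (minus strand) for Ccng1, chr4:154097214-154097423 (minus strand) for Trp73 and chr10:117710799-117711008 (minus strand) for Mdm2, which is shown for comparison and has no site in capitals.
Ccng1: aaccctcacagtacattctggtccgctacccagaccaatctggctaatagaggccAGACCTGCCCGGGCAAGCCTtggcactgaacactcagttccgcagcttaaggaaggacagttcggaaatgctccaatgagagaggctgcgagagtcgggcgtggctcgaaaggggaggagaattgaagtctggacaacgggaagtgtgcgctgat
Trp73, internal start: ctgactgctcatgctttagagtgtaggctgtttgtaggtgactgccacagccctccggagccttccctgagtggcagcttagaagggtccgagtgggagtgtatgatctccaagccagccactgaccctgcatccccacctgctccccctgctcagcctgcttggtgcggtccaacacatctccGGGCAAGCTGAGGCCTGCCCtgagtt
Mdm2: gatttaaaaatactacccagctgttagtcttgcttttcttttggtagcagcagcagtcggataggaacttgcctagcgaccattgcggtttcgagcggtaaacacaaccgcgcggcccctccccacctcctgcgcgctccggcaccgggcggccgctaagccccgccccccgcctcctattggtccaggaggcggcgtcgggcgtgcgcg
A match describes these letters and is not evidence of binding. The site of Ccng1 ends 175 bases before the start and that of the internal Trp73 start 46 bases before it.

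**Figure D1:**
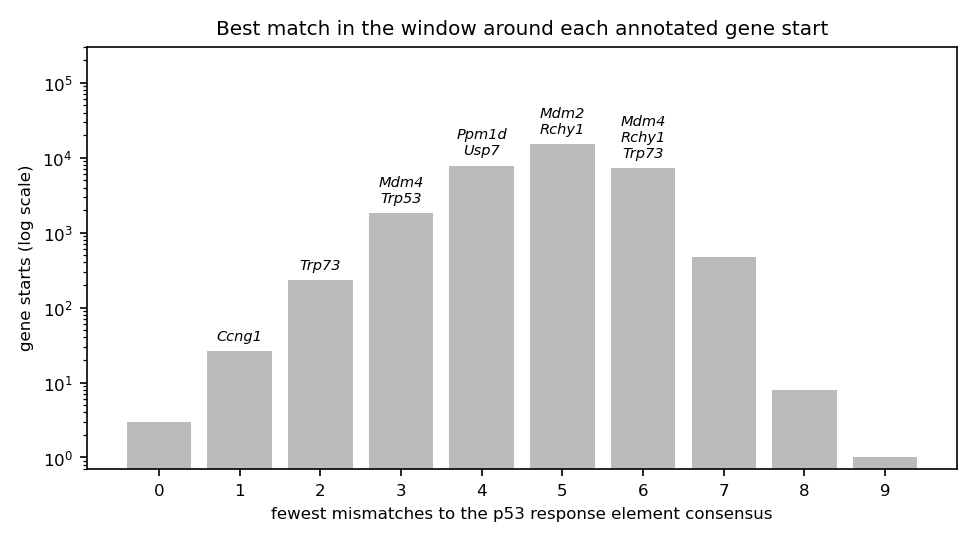
Number of RefSeq gene starts (bars, log scale) by the fewest mismatches to the p53 response element consensus in the window around the start, with the names of the 8 genes that have an entry. Ccng1 lies at 1 mismatch and an internal start of Trp73 at 2, while Mdm2 lies at 5, the most common number.

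Trp53 RNA fell at 4 and 8 h, while the RNA of Mdm2, Ccng1, Ppm1d and Trp73 rose at every time with both inhibitors. After 2 h, 4 of the 8 tested genes differed from control with BMH-21 and 6 with CX-5461, against 19.7% and 27.9% of all tested genes. At 4 h there were 7 with each, against 67.0% with BMH-21 and 70.9% with CX-5461. At 8 h there were 7 with BMH-21 and 8 with CX-5461, against 81.5% and 49.4%. At 4 h of both inhibitors and at 8 h of BMH-21 most genes in these cells were called, so the counts there say little about these genes and the sizes below carry the description. A gene was called at a limma adjusted p under 0.05 over all tested genes. The median log2 difference of the 8 genes was 0.54, 0.74 and 0.57 over the times of BMH-21, and for CX-5461 it was 0.67, 0.74 and 0.76. The median of all tested genes was -0.075, -0.21 and -0.40 in the BMH-21 comparisons. In those of CX-5461 it was -0.18, -0.28 and 0.11. The treated group lay wholly above or wholly below the control for 5, 6 and 7 of the 8 genes over the times of BMH-21, against 30.6%, 64.9% and 81.2% of all tested genes. The corresponding CX-5461 counts were 5, 7 and 8, against 38.2%, 68.4% and 62.3%.

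**Figure D2:**
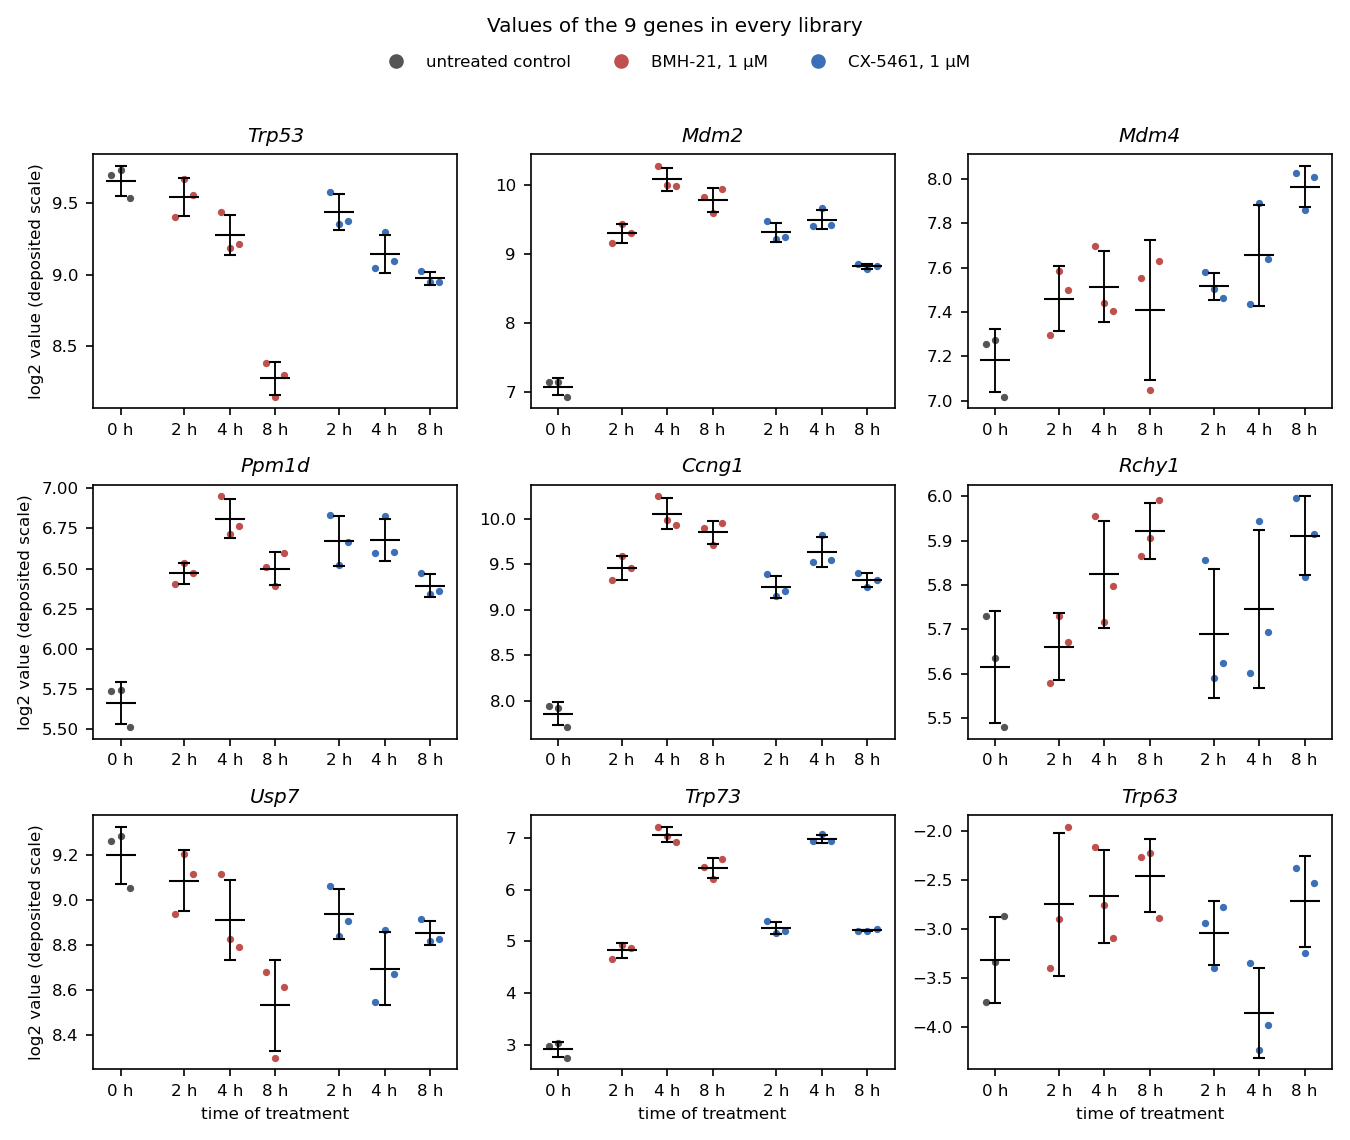
Deposited log2 value (y axes, each with its own range) of the 9 genes in each of the 21 libraries by time of treatment, with the mean (bar) and SD (whiskers) of 3 replicates. Mdm2, Ccng1, Ppm1d and Trp73 lie above all control libraries in every treated library, Trp53 is lowest after 8 h of BMH-21, and Trp63 stays below a log2 value of -1.9 in all libraries.

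Trp53 (chromosome 11, 69580359 to 69591873, plus strand, GENCODE M21 on GRCm38, the assembly also called mm10) encodes p53 itself. The control libraries had log2 values of 9.70, 9.73 and 9.54. After BMH-21 they were 9.40, 9.66 and 9.55 at 2 h, 9.44, 9.19 and 9.21 at 4 h, and 8.38, 8.15 and 8.30 at 8 h. With CX-5461 they were 9.58, 9.35 and 9.38, then 9.05, 9.29 and 9.09, then 9.03, 8.95 and 8.95. The groups overlapped the control at 2 h, and every library lay below it at 4 and 8 h. At 8 h of BMH-21 Trp53 fell by 1.38 ± 0.10 (SE) on the log2 scale, to 0.384 of the control level (limma adjusted p 1.33e-25), and after centring the difference was -1.17. At 8 h of CX-5461 it fell by 0.68 ± 0.10 (limma adjusted p 4.09e-09), and by 0.90 after centring. At 4 h it fell by 0.38 with BMH-21 (limma adjusted p 6.32e-04) and by 0.51 with CX-5461 (limma adjusted p 4.97e-06). After centring these 4 h differences were -0.23 and -0.35. The 2 h differences, -0.12 and -0.22, did not pass the threshold (limma adjusted p 0.491 and 0.089), although that of CX-5461 did when control replicate 3 (-0.28, limma adjusted p 0.0388) or CX-5461 2 h replicate 1 (-0.29, limma adjusted p 0.0288) was left out. In whole reads, Trp53 had 35174 to 38930 per control library and 19745 to 24497 after 8 h of BMH-21.

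Mdm2 (chromosome 10, 117688875 to 117710758, minus strand), the ligase of p53, had control values of 7.15, 7.14 and 6.93. They were 9.16, 9.43 and 9.30 at 2 h of BMH-21, from 9.98 to 10.28 at 4 h, and 9.82, 9.60 and 9.94 at 8 h. The CX-5461 libraries had 9.47, 9.22 and 9.25, then 9.41, 9.66 and 9.43, then 8.85, 8.78 and 8.83. No treated library came within 1 log2 unit of the control libraries. The rise over control was 4.67-fold at 2 h of BMH-21, 8.05-fold at 4 h and 6.54-fold at 8 h. For CX-5461 it was 4.72-fold, 5.37-fold and 3.35-fold. The 6 limma adjusted p were at most 1.38e-32, and the standard error was 0.10 on the log2 scale for each. Mdm2 was highest at 4 h of BMH-21 and, among treated groups, lowest at 8 h of CX-5461. The 2 h groups, at 9.30 and 9.31, did not differ beyond their spread.

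Mdm4 (chromosome 1, 132959484 to 133030561, minus strand) is a relative of Mdm2 that binds p53 and masks its activation domain but has little ligase activity of its own. Its control values were 7.25, 7.27 and 7.02, and those after 8 h of CX-5461 were 8.03, 7.86 and 8.01. On the deposited scale this was its largest rise, 0.78 ± 0.11 on the log2 scale (1.72-fold, limma adjusted p 9.15e-10). With CX-5461 it also rose at 2 h (0.33, limma adjusted p 0.0178) and at 4 h (0.47, limma adjusted p 1.03e-04). With BMH-21 it rose at 4 h (0.33, limma adjusted p 0.00631), while 0.28 at 2 h and 0.23 at 8 h did not pass the threshold (limma adjusted p 0.0646 and 0.0534). The 3 libraries at 8 h of BMH-21 were 7.55, 7.05 and 7.63, and without replicate 2 the difference was 0.41 (limma adjusted p 4.28e-04). The call at 4 h of BMH-21 was lost without control replicate 3 (0.25) or without replicate 1 of that group (0.24), and the call at 2 h of CX-5461 without control replicate 3 (0.25), CX-5461 2 h replicate 1 (0.30) or replicate 2 (0.34). The CX-5461 2 h call was also lost without the filter on low values (limma adjusted p 0.0586) or without a variance trend (limma adjusted p 0.0919). After centring, all 6 differences passed the threshold, from 0.35 to 0.63, and the largest was then at 4 h of CX-5461 (0.63) rather than at 8 h (0.57). A difference in which Mdm4 transcript was made could not be seen, since the table has 1 value per gene and the annotation has 14 transcripts of Mdm4.

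Ccng1 (chromosome 11, 40748552 to 40755311, minus strand) encodes cyclin G1, which brings a phosphatase to Mdm2. Its control values were 7.94, 7.92 and 7.71. They rose to 9.33, 9.59 and 9.46 at 2 h of BMH-21, 10.25, 9.99 and 9.93 at 4 h and 9.90, 9.71 and 9.96 at 8 h. With CX-5461 they were 9.39, 9.16 and 9.21, then 9.53, 9.83 and 9.55, then 9.41, 9.25 and 9.33. All treated libraries lay above all control libraries. Over the 3 times the rise was 3.03-fold, 4.59-fold and 3.99-fold for BMH-21. For CX-5461 it was 2.63-fold, 3.42-fold and 2.77-fold. The standard error was 0.10 on the log2 scale and the limma adjusted p at most 2.56e-24.

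Ppm1d (chromosome 11, 85311244 to 85347066, plus strand) encodes a phosphatase, also called Wip1, that removes phosphates from p53 and from the kinases that activate it. Its control values were 5.74, 5.74 and 5.51, and the treated libraries ranged from 6.34 to 6.95. BMH-21 raised it 1.75-fold, 2.21-fold and 1.78-fold over the 3 times. For CX-5461 the rise was 2.01-fold, 2.02-fold and 1.66-fold. The largest of these limma adjusted p was 2.75e-09. Its groups were closer to each other than those of Mdm2: the 2 h and 4 h means of CX-5461, at 6.67 and 6.68, did not differ beyond their spread.

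Rchy1 (chromosome 5, 91948904 to 91963068, minus strand), also called Pirh2, is another ubiquitin ligase of p53. Control values were 5.73, 5.63 and 5.48, and the treated libraries ranged from 5.58 to 6.00. On the deposited scale it passed the threshold only at 8 h, with 0.31 ± 0.11 for BMH-21 (limma adjusted p 0.00767) and 0.30 ± 0.11 for CX-5461 (limma adjusted p 0.0179). Without control replicate 3 both calls were lost, at 0.24 (limma adjusted p 0.0569) and 0.23 (limma adjusted p 0.106). The CX-5461 call was also lost without replicate 1 (0.25, limma adjusted p 0.0928) or replicate 3 (0.29, limma adjusted p 0.0511) of that group, and after centring it was 0.080 (limma adjusted p 0.149). After centring Rchy1 passed instead at 2 h of CX-5461 (0.22, limma adjusted p 0.00111), at 4 h of both inhibitors (0.36 for BMH-21 and 0.29 for CX-5461, limma adjusted p at most 1.52e-05) and at 8 h of BMH-21 (0.52, limma adjusted p 1.06e-09). Of its exon bases, 18.0% overlap Thap6 on the other strand. The way strand was used in counting is not given in the sources used here, so reads from the overlap may belong to either gene. Thap6 had group means from 3.80 to 4.39.

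Usp7 (chromosome 16, 8689595 to 8792308, minus strand) removes ubiquitin from both p53 and Mdm2. Its control values were 9.26, 9.28 and 9.05, and on the deposited scale all comparisons but that at 2 h of BMH-21 passed the threshold with a lower value. The libraries at 8 h of BMH-21 had 8.68, 8.30 and 8.61, and those at 4 h of CX-5461 had 8.55, 8.87 and 8.67. Both groups lay below all control libraries. With BMH-21 the difference was -0.11 at 2 h (not past the threshold, limma adjusted p 0.518), -0.29 at 4 h (limma adjusted p 0.0109; -0.14 after centring) and -0.67 ± 0.10 at 8 h (limma adjusted p 6.08e-09). With CX-5461 it was -0.26 at 2 h (limma adjusted p 0.0475; -0.12 after centring), -0.51 at 4 h (limma adjusted p 1.08e-05) and -0.35 at 8 h (limma adjusted p 0.00327). After centring, the 8 h difference was -0.46 with BMH-21, and CX-5461 gave -0.35 at 4 h and -0.56 at 8 h. The largest fall was then at 8 h of CX-5461 rather than at 8 h of BMH-21. The 4 h call of BMH-21 was lost without control replicate 1 or 2 or without BMH-21 4 h replicate 2 or 3, with differences from -0.26 to -0.23. The 2 h call of CX-5461 was lost in 5 of 9 other settings (limma adjusted p from 0.0563 with the replicate block to 0.122 with median-ratio factors), and without control replicate 1 or 2 or without CX-5461 2 h replicate 2 or 3, with differences from -0.25 to -0.22.

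Trp73 (chromosome 4, 154056253 to 154140208, minus strand) encodes p73, which shares the DNA-binding domain of p53 and is made from a distal and an internal promoter, the latter giving a shorter form that can oppose p53. Its fold changes were the largest of the 8 genes in the comparisons with control, except at 2 h of BMH-21, when that of Mdm2 was larger. Control libraries held 367, 372 and 320 reads, with log2 values of 2.97, 3.03 and 2.76. After BMH-21 the values were 4.67, 4.94 and 4.88 at 2 h, 7.22, 7.04 and 6.93 at 4 h (6748 to 7531 reads) and 6.43, 6.21 and 6.59 at 8 h. After CX-5461 they were 5.39, 5.17 and 5.21, then 6.94, 7.07 and 6.95 (6316 to 8086 reads), then 5.20, 5.21 and 5.23. Each treated group lay above the control without overlap. The rise was 3.75-fold at 2 h, 17.6-fold at 4 h and 11.2-fold at 8 h of BMH-21, and 5.05-fold, 16.7-fold and 4.90-fold with CX-5461 (SE 0.11 on the log2 scale, limma adjusted p at most 3.06e-32). Gene values do not show which start was used. An antisense gene, Trp73os, overlaps 5.06% of the exon bases. It was not found under that symbol among the deposited genes, so it has no values here.

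Trp63 (chromosome 16, 25683763 to 25892102, plus strand), which encodes p63, a factor of epithelial cells, had 3, 4 and 6 reads in the control libraries and 2 to 18 reads in the treated ones. It was below the filter and was not tested there. In a fit of all 20900 genes without the filter, 0 of the 6 differences from control passed the threshold (limma adjusted p from 0.093 to 0.703). Of the other comparisons in that fit, the one between 8 h and 4 h of CX-5461 passed it (1.13 ± 0.45, limma adjusted p 0.038). Its levels lie near the limit that a count of 0 allows, where a few reads make such a difference.

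**Figure D3:**
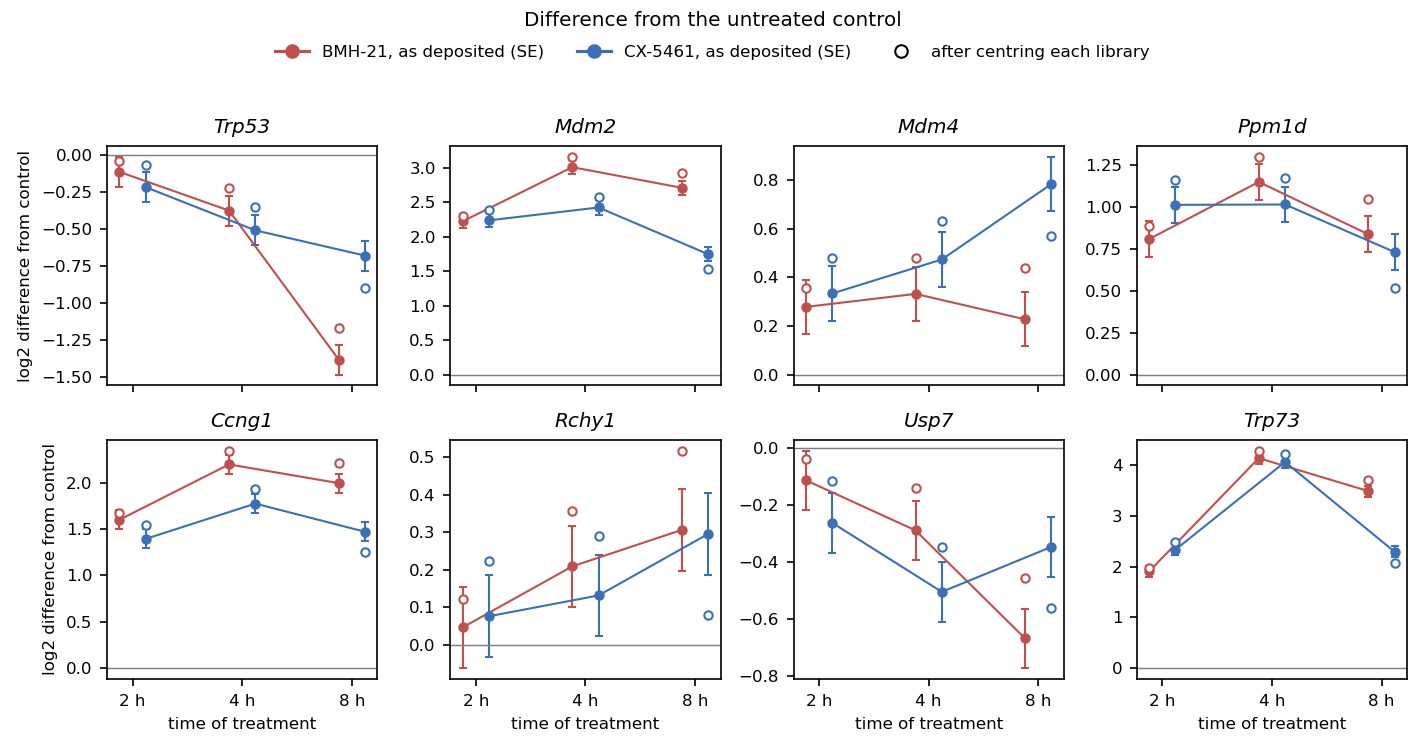
Difference from the control on the log2 scale (y axes, each with its own range) of the 8 tested genes at 2, 4 and 8 h of each inhibitor; filled points are the deposited scale with SE and open points are after centring each library. Mdm2, Ccng1 and Trp73 rise to 4 h and are lower at 8 h of CX-5461 than of BMH-21, and Trp53 falls by 1.38 at 8 h of BMH-21.

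Few of the genes differed between the inhibitors at 2 h and most at 8 h, when most of all tested genes did as well. Of the 8 tested genes, 1 differed between BMH-21 and CX-5461 at 2 h (3.99% of all tested genes), 2 at 4 h (17.8%) and 6 at 8 h (79.2%). The gene that differed at 2 h was Trp73, which was lower with BMH-21 by -0.43 ± 0.11 (limma adjusted p 0.00829). That call was lost without replicate 1 of BMH-21 (-0.35, limma adjusted p 0.0778) or of CX-5461 (-0.36, limma adjusted p 0.0678) at 2 h. At 4 h Mdm2 was higher with BMH-21 by 0.59 ± 0.10 on the log2 scale (limma adjusted p 4.48e-06) and Ccng1 by 0.42 ± 0.10 (limma adjusted p 0.0011). At 8 h Trp73 (2.29-fold), Mdm2 (1.95-fold) and Ccng1 (1.44-fold) were higher with BMH-21, with limma adjusted p of at most 2.59e-06. These differences run against the median of all tested genes, which was -0.48 in that comparison, and after centring they were 1.63, 1.39 and 0.95 on the log2 scale.

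Trp53 was lower with BMH-21 than with CX-5461 at 8 h by -0.70 ± 0.10 (limma adjusted p 8.34e-10) and by -0.27 after centring (limma adjusted p 2.63e-08). Mdm4 was lower by -0.56 (limma adjusted p 4.30e-06), but by -0.13 after centring (limma adjusted p 0.0765). Usp7 was -0.32 on the deposited scale (limma adjusted p 0.00367), 0.11 after centring and 0.15 with median-ratio factors, so that its direction depends on the scaling. Its deposited call was also lost without BMH-21 8 h replicate 2 (-0.21, limma adjusted p 0.0804). Ppm1d differed by 0.11 on the deposited scale (95% interval -0.11 to 0.32) and by 0.53 after centring (limma adjusted p 2.77e-11). Rchy1 differed by 0.011 (95% interval -0.21 to 0.23) and by 0.44 after centring.

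On the deposited scale Trp73, Mdm2 and Ppm1d came down between 4 and 8 h with both inhibitors, and Trp73 and Mdm2 by more with CX-5461. Of the 8 genes, 5 changed from 4 to 8 h of BMH-21 (56.4% of all tested genes) and 5 of CX-5461 (63.7%). Trp73 fell by 0.65 ± 0.11 with BMH-21 (limma adjusted p 2.41e-07) and by 1.77 ± 0.11 with CX-5461 (limma adjusted p 7.49e-29). Mdm2 fell by 0.30 (limma adjusted p 0.00934) and by 0.68 (limma adjusted p 1.17e-08) in the same steps. The Mdm2 call with BMH-21 was lost without replicate 1 at 4 h (-0.20, limma adjusted p 0.112) or replicate 2 at 8 h (-0.21, limma adjusted p 0.105). Trp53 (to 0.499 of its 4 h level, limma adjusted p 6.92e-16), Usp7 (-0.38, limma adjusted p 0.00113) and Ppm1d (-0.31, limma adjusted p 0.00931) fell as well from 4 to 8 h of BMH-21, the last of these not without replicate 1 at 4 h (-0.24, limma adjusted p 0.0662). With CX-5461 the falls stood in a step in which 58.8% of all tested genes rose and 4.85% fell on the deposited scale. These shares depend on the scaling and were 25.8% and 32.0% after centring. Ppm1d (-0.28) and Ccng1 (-0.30) also fell there (limma adjusted p 0.0166 and 0.00743). Both calls were lost without CX-5461 4 h replicate 2 (-0.21 for each), and that of Ppm1d also without CX-5461 8 h replicate 2 (-0.26) or 3 (-0.27). After centring, Ppm1d and Ccng1 differed by -0.66 and -0.68 in this step of CX-5461. In the same step of BMH-21, centred Ppm1d differed by -0.25 and centred Ccng1 by -0.14. Mdm4 was 0.31 higher at 8 h than at 4 h of CX-5461 on the deposited scale (limma adjusted p 0.0117) and -0.06 after centring. Trp53 differed by -0.17 in this step (limma adjusted p 0.13) and by -0.54 after centring (limma adjusted p 7.2e-13). Mdm4 lost the call without CX-5461 4 h replicate 1 (0.20) or 8 h replicate 1 (0.28), and without a variance trend (limma adjusted p 0.0623).

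From 2 to 4 h, 5 of the 8 genes changed with BMH-21 (55.6% of all tested genes) and 4 with CX-5461 (47.5%). Trp73 rose by 2.23 on the log2 scale with BMH-21 and by 1.73 with CX-5461 (limma adjusted p at most 3.12e-29). Mdm2 rose by 0.79 on the log2 scale with BMH-21 (limma adjusted p 4.73e-11), and its difference with CX-5461 was 0.19 (limma adjusted p 0.127; 0.20 after centring, limma adjusted p 2.36e-05). Ccng1 rose by 0.60 and 0.38. Trp53 was lower at 4 h than at 2 h by -0.26 with BMH-21 (limma adjusted p 0.0221) and by -0.29 with CX-5461 (limma adjusted p 0.0125). Both calls of Trp53 were lost when any of several single libraries was left out, with differences from -0.25 to -0.20 for BMH-21 (without replicate 2 or 3 at 2 or 4 h) and from -0.26 to -0.22 for CX-5461 (without replicate 1 at 2 h, or replicate 1 or 3 at 4 h). The 2 to 4 h change differed between the inhibitors for 2 of the 8 genes (3.33% of all tested genes) and the 4 to 8 h change for 5 of 8 (69.4%).

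Differences between 2 genes of the same library do not depend on its scaling factor. In the control the log2 value of Mdm2 minus that of Trp53 was -2.58 ± 0.03 (SD, n = 3), so Mdm2 reads were 0.167 of Trp53 reads. This difference was -0.24 ± 0.01 at 2 h of BMH-21, 0.81 ± 0.03 at 4 h and 1.51 ± 0.11 at 8 h, when the ratio of reads was 17.0-fold that of the control. With CX-5461 it was -0.12 ± 0.02, 0.35 ± 0.02 and -0.15 ± 0.03, so it went up to 4 h and back to near its 2 h value. At 8 h the lowest BMH-21 library, at 1.44, stood above the highest CX-5461 library, at -0.13. Ccng1 minus Trp53 was -1.80 ± 0.04 in the control, 1.58 ± 0.07 at 8 h of BMH-21 and 0.35 ± 0.04 at 8 h of CX-5461.

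Mdm2 and Mdm4 had nearly equal log2 values in the control, with a difference of -0.11 ± 0.02. BMH-21 brought it to 1.84, 2.57 and 2.38 over the 3 times. For CX-5461 it was 1.80, 1.84 and 0.86. Usp7 minus Trp53 was -0.45 ± 0.02 in the control and within -0.50 to -0.37 in the 2 h and 4 h groups. It was 0.26 ± 0.09 at 8 h of BMH-21 and -0.12 ± 0.01 at 8 h of CX-5461. These within-library differences are descriptions and were not tested.

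**Figure D4:**
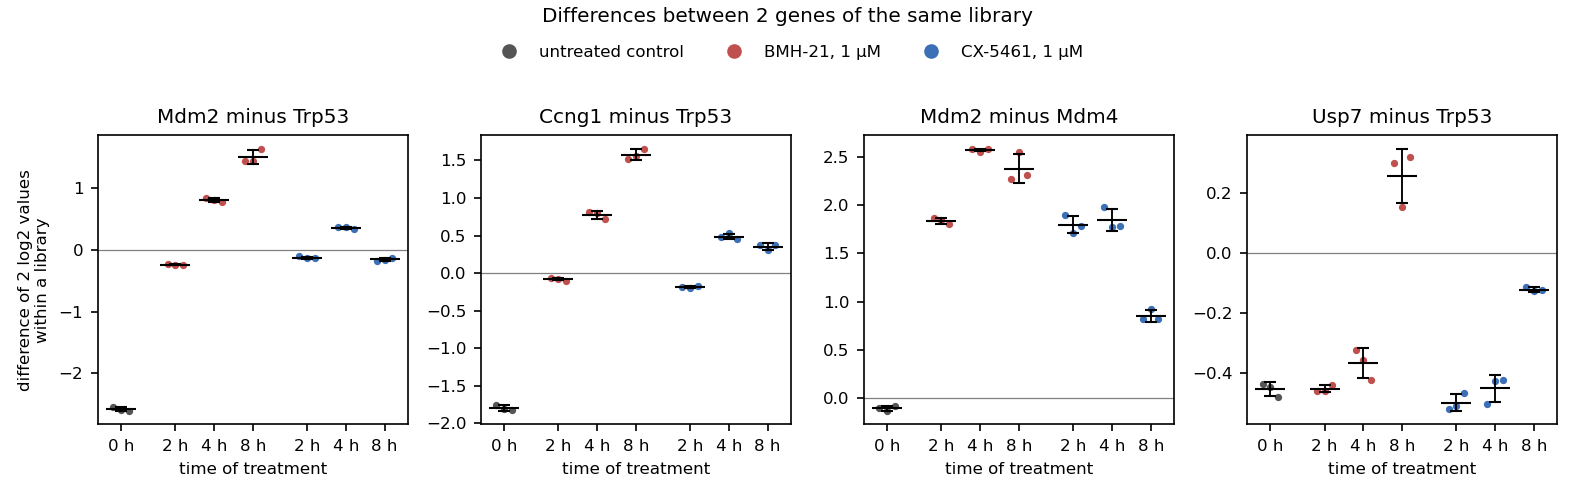
Difference of the log2 values of 2 genes within each library (y axes, each with its own range) by time and inhibitor, with the mean (bar) and SD (whiskers) of 3 replicates. Mdm2 minus Trp53 climbs from -2.58 to 1.51 over 8 h of BMH-21, while with CX-5461 it reaches 0.35 at 4 h and is -0.15 at 8 h.

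Levels can be compared between genes only per length, here the log2 value per kilobase of merged exons. On that scale Trp53 was the highest of the 9 genes in the control (7.64), followed by Usp7 (6.24), Ccng1 (6.05) and Mdm2 (4.73). Ccng1 was the highest in each of the 6 treated groups, from 7.44 at 2 h of CX-5461 to 8.24 at 4 h of BMH-21. Mdm2 was above Trp53 at 4 h of both inhibitors and at 8 h of BMH-21, and below it at 2 h of both and at 8 h of CX-5461. Its level and that of Trp53 at 4 h of CX-5461, 7.15 and 7.13, did not differ beyond their spread. Trp73 went from 0.45 in the control to 4.59 at 4 h of BMH-21, above Rchy1 (3.91) and Mdm4 (3.63). Merged exons can be longer than any transcript in use, and those of Mdm4 span 14798 bases.

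The genes whose values were most like those of a member were found by Pearson's r over the 21 libraries. The libraries share 7 groups and a scaling factor, so r is a description with no p. Genes most like Mdm2 included Lpin1 (r = 0.996) and Slc19a2 (0.992), which also led after centring. Ccng1 was most like Neurod1 (0.993), Ddit4l (0.988) and Lpin1 (0.984), which also led after centring. Ppm1d was most like Polk (0.980), a DNA polymerase that copies past damaged bases, Gpr75 (0.976) and Zfp750 (0.975), of which the last 2 stayed among the first 3 after centring. For Trp53 the nearest were Dnajc7, Atic and Ybx3, each with r = 0.996, of which 1 of 3 stayed among the first 3 after centring. Mdm4 had lower values, with Dync1li1 (0.918), Haus2 (0.915) and Rab11fip5 (0.909), and 0 of these 3 stayed after centring.

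Other p53 target genes were described from a list of 30, of which 29 were tested. With BMH-21, 21, 23 and 22 were higher than control at 2, 4 and 8 h, against 8.48%, 22.1% and 24.5% of all tested genes. With CX-5461, 20, 24 and 25 were higher, against 7.45%, 19.8% and 35.1%. None was lower at 4 h of BMH-21 or of CX-5461, against 44.9% and 51.2% of all tested genes. At 8 h of BMH-21 3 were lower (56.9%), and at 2 h of CX-5461 1 was (20.5%). After centring 0 were lower and 25 higher at 8 h of BMH-21, against 51.3% and 33.3%. The median difference of the 29 was 0.82, 1.83 and 1.72 over the times of BMH-21. For CX-5461 it was 1.12, 1.64 and 1.32. Fas, a death receptor, rose from a mean of -2.17 in the control to 3.83 at 4 h of BMH-21 and 3.04 at 4 h of CX-5461. Its control mean lay below the filter value of 0, so Fas passed the filter through treated libraries. Plk2, a kinase, rose by 3.67 and 2.81 on the log2 scale at 4 h (limma adjusted p at most 3.28e-51). In their windows around the gene start, available for 20 of the 30 genes, Cdkn1a and Gtse1 held a site with at most 2 mismatches to the p53 response element consensus.

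The list of ribosomal proteins and nucleolar proteins that link the nucleolus to Mdm2 had 15 genes, of which 14 were tested and Rpl26 was below the filter. None was higher at 2 or 4 h on the deposited scale. With BMH-21, 1, 5 and 11 of 14 were lower at 2, 4 and 8 h, against 11.2%, 44.9% and 56.9% of all tested genes. Higher were 0, 0 and 1, against 8.48%, 22.1% and 24.5%. With CX-5461, 2, 11 and 5 were lower, against 20.5%, 51.2% and 14.3%. Higher were 0, 0 and 1, against 7.45%, 19.8% and 35.1%. Gnl3, also called nucleostemin, a nucleolar protein that can bind Mdm2, fell by 1.20 at 4 h of BMH-21 and by 0.87 at 4 h of CX-5461 (limma adjusted p at most 1.12e-12). Srsf1, a splicing factor reported to take part in the same pathway, fell by 0.72 and by 0.64 (limma adjusted p at most 2.35e-08). The counts depend on the scaling. After centring 2 were higher and 4 lower at 4 h of BMH-21, against 32.2% and 41.5% of all tested genes. At 8 h of CX-5461 1 was then higher and 11 lower, against 29.3% and 44.7%.

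Of the 20 other ubiquitin ligases and deubiquitinases of p53 or Mdm2, all tested, 3 were higher and 13 lower at 4 h of BMH-21, against 22.1% and 44.9% of all tested genes. For CX-5461 the 4 h counts were 2 and 16, against 19.8% and 51.2%. The 8 h counts were 3 and 15 for BMH-21 (24.5% and 56.9%) and 3 and 10 for CX-5461 (35.1% and 14.3%). After centring the latter were 3 and 15, against 29.3% and 44.7% of all tested genes. Usp2, a deubiquitinase of Mdm2, rose by 2.00 at 4 h of BMH-21 and by 1.42 at 4 h of CX-5461. Cul4a, a ligase scaffold, rose by 0.82 and 0.58. Topors, a ligase for p53, fell by 1.24 and by 0.83, and Usp28, a deubiquitinase, fell by 1.14 and by 1.09. The limma adjusted p of these 8 values were at most 1.87e-06.

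A further list held 20 genes for kinases, regulators of p53 acetylation or methylation, and other regulators of p53. Of these 20, 4 were higher and 12 lower at 4 h of BMH-21 (22.1% and 44.9% of all tested genes). For CX-5461 the 4 h counts were 4 and 13 (19.8% and 51.2%). At 8 h 4 were higher and 15 lower with BMH-21 (24.5% and 56.9%), while CX-5461 gave 4 and 5 (35.1% and 14.3%). The last split depends on the scaling and was 3 and 14 after centring, when 29.3% of all tested genes were higher and 44.7% lower. Among them Ppp1r13l, which encodes the p53 inhibitor iASPP, rose by 2.21 and 2.32 at 4 h of BMH-21 and CX-5461. Ppp1r13b, which encodes its relative ASPP1, rose by 1.62 and 1.54. Sirt1, a deacetylase of p53, fell by 1.03 and by 0.90, and Trp53bp2, which encodes ASPP2, fell by 0.86 and by 0.75. These 8 values had limma adjusted p of at most 2.79e-09.

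**Figure D5:**
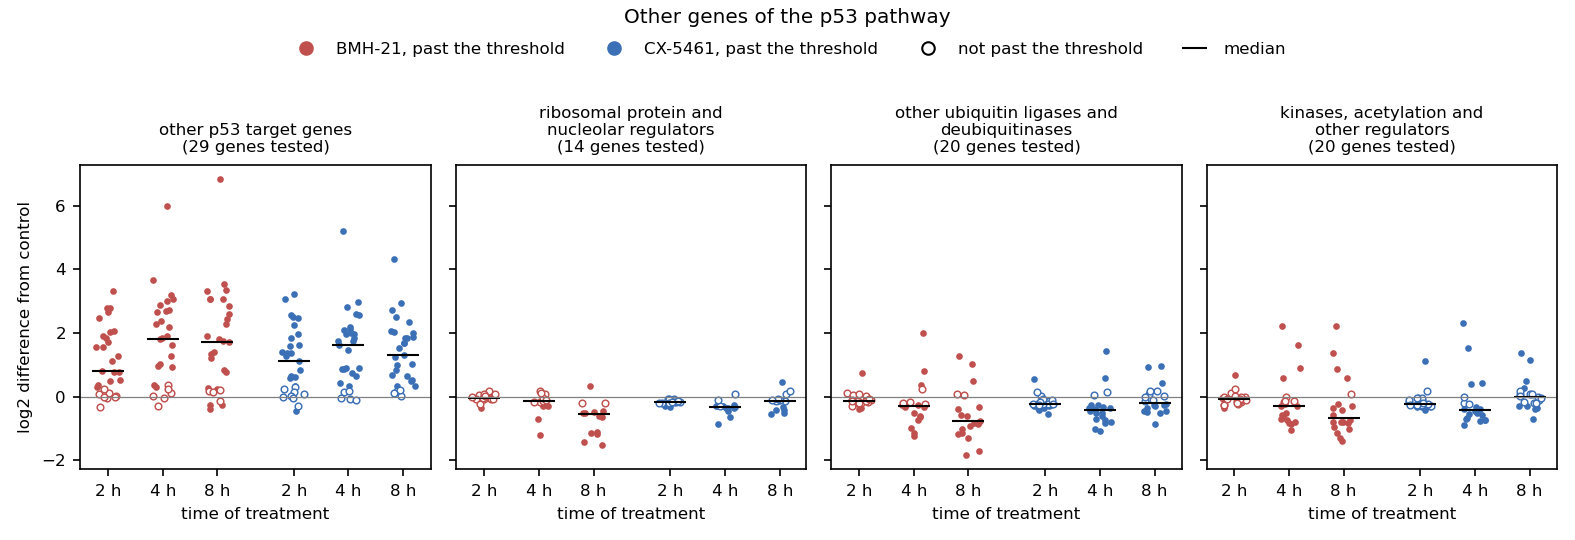
Difference from control on the log2 scale of each tested gene of the 4 lists (points; filled where past the threshold, open where not; bar, median) at 2, 4 and 8 h of each inhibitor. The other p53 target genes have medians of 0.82 to 1.83 and the 3 other lists have medians below 0. On this deposited scale the median of all tested genes lies between -0.40 and 0.11. After centring, the ribosomal and nucleolar list has medians of 0.031 and 0.0022 at 2 and 4 h of BMH-21. The list of kinases and other regulators then has 0.0026 at 2 h of BMH-21.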

How the data were processed

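Poly(A) RNA of 21 libraries was sequenced from a directional kit after DNase treatment, per the labels' protocols. The authors deposited 1 table of log2 values, normalised with voom by its name. The submitters' processing notes name Trim Galore 0.5.0, TopHat2 2.1.1, R 4.0.5, DESeq2 1.30.1, edgeR 3.32.1, limma 3.46.0 and build mm10, with no role or order. The counting program, annotation and filters are not given in the sources used here. Each deposited value was log2 of whole reads plus 0.5 over a scaled library size, with whole reads recovered to within 1.7e-08, so read counts are given beside log2 values. Fold changes on this scale understate those of low genes.

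The test was a two-sided linear model in limma 3.58.1 (R 4.3.3), fitted to the 7 groups of the 21 libraries at once with a trended eBayes variance, in 15 comparisons. P-values were adjusted by Benjamini-Hochberg, at 0.05, over the 14666 genes whose log2 value exceeded 0 in 3 or more libraries. The other 6234 genes were set aside. Replicates differed beyond sampling noise in all 21 pairs (chi-square per degree of freedom 2.40 to 23.2), so each library was counted as 1 sample. The variance prior carried 111.5 degrees of freedom on the deposited scale and 8.53 after centring, against 14 from the replicates. On the deposited scale the standard errors therefore rest more on the trend over all genes than on a gene's own libraries. The own SD divided by the moderated SD ranged from 0.88 (Ppm1d) to 1.34 (Mdm4). The own SD of Trp53 was 0.118, and 0.022 after centring. For Mdm4 these were 0.182 and 0.092. On simulated reads for BMH-21 at 4 h against control (14666 genes), 194 of 200 changed genes were recovered with 14 false calls, and a comparison without changes gave 0 calls. The simulated noise was independent between genes and held no shift shared by a whole library. The data hold such shifts and many more called genes, so the simulation does not give the error rate of these results.

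The 9 genes and the lists were chosen with earlier results of these data known, so no test over a list is given. Named genes are the 9, the 3 genes most correlated with each of 5 of them, and in each list the largest 2 rises and 2 falls at 4 h of BMH-21 among genes called in the same direction with both inhibitors. 1 gene that this rule names is not reported here. Alternatives were centring, median-ratio factors, no filter or a stricter one, an offset of 5 reads, no variance trend, voom weights, a replicate block, fits of just the groups in a comparison, and leaving out each library. Gene positions came from GENCODE M21 and promoters from RefSeq (GRCm38.p6). Plots were drawn with matplotlib 3.10.9.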

Additional observations from a re-analysis of the deposited data

Results flagged for a closer look

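The change from 2 to 4 h and from 4 to 8 h was tested for a difference between the inhibitors, as BMH-21 minus CX-5461 on the log2 scale. From 2 to 4 h, 2 of the 8 genes differed, against 3.33% of all tested genes. Mdm2 rose by 0.60 more with BMH-21 (limma adjusted p 0.00525) and Trp73 by 0.50 more (limma adjusted p 0.0488). The Mdm2 call was lost in 2 of 9 other settings, and that of Trp73 in 4 of 9 and in 9 of 12 fits that left out a library (0.42 to 0.55, limma adjusted p 0.0596 to 0.136). From 4 to 8 h, 5 of the 8 differed, against 69.4% of all tested genes, so this count says little about these genes. Trp73 fell less with BMH-21, with a difference of 1.12 (limma adjusted p 9.76e-10), as did Mdm2, with 0.38 (limma adjusted p 0.0168). Trp53 fell more with BMH-21, with a difference of -0.83 (limma adjusted p 3.15e-07; -0.40 after centring, limma adjusted p 3.76e-08). For Usp7 it was -0.54 (limma adjusted p 8.83e-04) and for Mdm4 -0.42 (limma adjusted p 0.0153). Leaving out a library lost the Mdm2 call in 4 of 12 fits (0.30 to 0.33) and the Mdm4 call in 3 of 12 (-0.32 to -0.23). The Mdm4 call was also lost without a variance trend (limma adjusted p 0.0716). After centring Usp7 and Mdm4 were -0.10 and 0.02 and did not pass the threshold (limma adjusted p 0.106 and 0.853). In this step the median of all tested genes differed between the inhibitors by -0.52.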

How the results depend on the processing

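Mdm2, Ccng1, Ppm1d and Trp73 kept their rise over control, and Trp53 its fall at 4 and 8 h, past the threshold under all alternatives run. Over the 8 genes and 15 comparisons, alternatives other than leaving out a library kept direction and side of the threshold 991 times, and 48 gained, 25 lost and 16 reversed. Leaving out a library gave 718 unchanged, 11 gained, 56 lost and 31 reversed. The scaling mattered most. Centring changed the number of genes called to 5285 (BMH-21, 2 h), 2261 and 6719 (BMH-21 against CX-5461 at 2 and 4 h) and 2460 (difference between inhibitors of the 2 to 4 h change), and median-ratio factors to 5243, 2208, 6116 and 2353. The counts among the 9 genes became 3, 5 and 4 (BMH-21 against CX-5461 at 2 h and 4 h, and the 2 to 4 h difference) after centring, and 4, 4 and 4 with median-ratio factors, with 7 for CX-5461 at 4 h against 2 h. For the 2 to 4 h difference, 0 of the 9 genes were called without the filter (280 genes in all) and 0 without a variance trend (312 in all), where Mdm2 had limma adjusted p of 0.051 and 0.0587; with only the groups compared it was 1, and 2 for CX-5461 at 4 h against 2 h. The cause of these changes was not tested.

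Directions that reversed after centring were those of Usp7 between inhibitors at 8 h (0.11), of Mdm4 (-0.063), Rchy1 (-0.21) and Usp7 (-0.22) from 4 to 8 h of CX-5461, and of Mdm4 (0.021), Ppm1d (0.41) and Rchy1 (0.37) in the difference between inhibitors of the 4 to 8 h change. With median-ratio factors the values were 0.15, then -0.055, -0.20 and -0.21, then 0.12, 0.51 and 0.47, with Usp7 at 0.0016 in the last and Mdm4 at 0.069 from 4 to 8 h of BMH-21.

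Leaving out each library in turn, the number of genes called ranged from 2370 to 5592 for CX-5461 at 2 h, and between inhibitors from 361 to 653 at 2 h and from 1687 to 2931 at 4 h. Of the 9 genes it called 0 to 1 between inhibitors at 2 h, 3 to 6 from 4 to 8 h of BMH-21, 2 to 4 from 2 to 4 h of CX-5461 and 1 to 2 in the 2 to 4 h difference. Small differences crossed 0. Against control at 2 h Rchy1 ranged from -0.022 to 0.10 (BMH-21) and -0.0074 to 0.13 (CX-5461). Between inhibitors the ranges at 2 h were -0.079 to 0.066 (Mdm2), -0.12 to 0.026 (Mdm4) and -0.079 to 0.053 (Rchy1), at 4 h -0.0018 to 0.14 (Trp73) and at 8 h -0.035 to 0.054 (Rchy1). For Mdm4 with BMH-21 they were -0.038 to 0.12 from 2 to 4 h and -0.22 to 0.077 from 4 to 8 h, and from 2 to 4 h of CX-5461 -0.073 to 0.082 (Ppm1d) and -0.044 to 0.14 (Rchy1). In the 2 to 4 h difference between inhibitors they were -0.050 to 0.10 (Trp53), -0.036 to 0.15 (Usp7) and -0.20 to 0.033 (Mdm4), and in the 4 to 8 h difference -0.10 to 0.041 (Ppm1d) and -0.17 to 0.0058 (Rchy1).

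The replicate numbers showed no pairing of the libraries. Deviations from the group mean were correlated between libraries of different groups. Of 63 such correlations between same-numbered libraries, 1 was above 0.1. Their median was 0.0021, against 0.0084 for libraries with different numbers. For 4 of 21 libraries the mean correlation was highest with libraries of their own number. With the replicate number as a block, the 9 genes gave 5 calls in place of 6 for CX-5461 at 2 h, 3 in place of 4 for CX-5461 at 4 h against 2 h, and 1 in place of 2 in the 2 to 4 h difference, and the same number in the other 12 comparisons. The number of all genes called under the block was 2720 in place of 2891 for BMH-21 at 2 h and 9680 in place of 9826 at 4 h. Depth limited Trp63.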
